A study of Homo sapiens and Mus musculus with 16 samples.

Results

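The small RNA of SK-HEP-1 cells after 4 h with AcFBE was measured in 4 libraries, which are 4 of the 16 samples of the series. SK-HEP-1 is an established human liver cancer cell line, and AcFBE is the ethanol extract of the fruiting body of the medicinal fungus Antrodia cinnamomea. Untreated cells (4U) received DMSO, the solvent of the extract, and treated cells (4T) received AcFBE at 0.5 mg/ml, and both were grown in DMEM with fetal bovine serum. The experiment was done in 2 batches of cells, and each batch gave 1 library of 4U and 1 of 4T (n = 2 pairs). Batch 1 was sequenced on a SOLiD 3 and batch 2 on a SOLiD 5500xl, so batch stands for the repeat of the experiment and for the sequencer together. The members are the known miRNAs of the 2 count tables, 384 in either table and 262 in both. Each count was divided by the quality reads of its library to give RPM (reads per 1000000 quality reads), and 4T was compared with 4U inside its own batch. All of the cells in a comparison came from 1 line without animals or donors, so the spread is that between 2 repeats of a culture.

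A miRNA is a short RNA cut from a hairpin transcript, first in the nucleus by DROSHA and then in the cytoplasm by DICER1. One arm of the hairpin, the guide, is loaded into an Argonaute protein, while the other arm, marked with a star in these tables, is usually less abundant. The loaded miRNA finds messenger RNAs through its seed, bases 2 to 8 from its 5′ end, and lowers their translation and stability. miRNAs with the same seed form a family that can act on the same targets, and several families, such as let-7, miR-15 and miR-17, are well studied in liver cancer for their targets in the cell cycle.

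The seeds were read from the mature sequences of RefSeq (GRCh38.p14), which matched 335 of the 384 miRNAs by name and 230 of the 262 in both tables. The sequences below are those of the miRNAs on which the results turn, grouped by seed, 5′ to 3′ and with the seed in capitals. The let-7, miR-15, miR-17, miR-29, miR-103, miR-125 and miR-221 families are shown because their members could be compared with each other, and miR-503 because it lies next to miR-424 and differs from it in the seed. miR-24, miR-100, miR-193b and miR-34a are shown as single miRNAs described below.
let-7f: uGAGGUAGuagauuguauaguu
let-7g: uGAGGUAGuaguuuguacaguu
let-7a: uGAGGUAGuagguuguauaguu
let-7d: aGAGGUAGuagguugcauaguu
miR-15b: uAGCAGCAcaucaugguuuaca
miR-424: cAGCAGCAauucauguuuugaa
miR-503: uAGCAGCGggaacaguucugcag
miR-17: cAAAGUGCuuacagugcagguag
miR-20a: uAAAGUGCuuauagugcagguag
miR-93: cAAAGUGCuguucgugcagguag
miR-29a: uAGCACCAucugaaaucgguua
miR-29b: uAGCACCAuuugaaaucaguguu
miR-29c: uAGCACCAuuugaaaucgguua
miR-103a: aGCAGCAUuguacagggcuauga
miR-107: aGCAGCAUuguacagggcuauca
miR-125b: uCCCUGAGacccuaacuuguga
miR-125a-5p: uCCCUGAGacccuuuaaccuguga
miR-221: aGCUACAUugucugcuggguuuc
miR-222: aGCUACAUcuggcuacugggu
miR-24: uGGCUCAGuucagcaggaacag
miR-100: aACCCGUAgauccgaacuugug
miR-193b: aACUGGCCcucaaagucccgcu
miR-34a: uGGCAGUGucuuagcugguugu
Some members of a family, such as miR-103a and miR-107, differ by few bases outside the seed, so a read could be split between them. Others, such as miR-221 and miR-222 or miR-15b and miR-424, differ at more positions. The family sums given below leave out same-seed miRNAs listed in 1 table only, such as miR-16, and those without a RefSeq sequence, such as miR-130a, miR-30b and miR-30d, so reads shared with these can still move a sum. miR-103b is the exact reverse complement of miR-103a and had the same counts in every library, so the pair was counted once, under miR-103a.

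The 4 libraries held 11782455 (4U) and 9175263 (4T) quality reads in batch 1 and 20201916 (4U) and 14109705 (4T) in batch 2. Reads assigned to miRNAs numbered 760674 and 223704 in batch 1 and 482484 and 154244 in batch 2. Their share of the quality reads was 6.46% in 4U (95% Wilson interval 6.44 to 6.47) and 2.44% in 4T (2.43 to 2.45) of batch 1. In batch 2 it was 2.39% (2.38 to 2.39) in 4U and 1.09% (1.09 to 1.10) in 4T. The count tables, with both strands of the miR-103 pair, hold 83.5 to 90.2% of the reads that the library statistics give as mapped to miRBase. With all mapped reads the share was 8.30% and 3.04% in batch 1 and 2.94% and 1.37% in batch 2, an alternative added after the data were seen, so the intervals do not cover this gap. The share of miRNA reads was thus 2.65-fold lower in 4T of batch 1 and 2.18-fold lower in 4T of batch 2, with a mean log2 ratio of -1.27 ± 0.20 (SD, n = 2 pairs). With all mapped reads the folds were 2.73 and 2.14. An exact sign-flip test over 2 pairs (two-sided) gave p = 0.5, the smallest p it allows, so this design could not reach 0.05. In the untreated libraries of 2 h (2U) the share was 12.2% in batch 1 and 2.63% in batch 2. It thus differed between the untreated libraries of batch 1 as well (12.2% in 2U and 6.46% in 4U), and the part of this spread in the folds was not tested. Between 67.9 and 77.0% of a library's miRNA reads went to its 10 leading miRNAs, and 8 miRNAs were among the 10 most abundant of all 4 libraries.

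Fewer miRNAs were listed above 0 in the treated libraries, 233 against 318 in batch 1 and 236 against 264 in batch 2. As the smallest count above 0 was 2 in each library, a single read may stand behind a listed 0, and 3 reads correspond to 0.149 to 0.327 RPM. The intervals and this limit cover counting error only, as the reads carry no molecular identifiers. Reads removed as other small RNA, most of them by the filter against transfer RNA in each library, moved with treatment as well. Of the reads of 16 to 30 bases, those removed by the filters against ribosomal RNA, transfer RNA and repeats made up 30.3% in 4U and 10.4% in 4T of batch 1, and 37% and 17.0% in batch 2. Per read left after these filters, the share of miRNA reads was 3.41-fold and 2.92-fold lower in 4T of the 2 batches. The reads left numbered 4787456 (4U) and 4801874 (4T) in batch 1 and 4920037 and 4594902 in batch 2. miRNAs made up 15.9% and 4.66% of them in batch 1 and 9.81% and 3.36% in batch 2. RPM is a share of reads, so it is also lower where other small RNA takes up more of the reads. In these bulk samples, more of other small RNA, fewer cells that hold a miRNA and less of it per cell cannot be told apart.

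Markers were used to see what kind of cell the libraries held. miR-122, the most abundant miRNA of hepatocytes, was at 0.509 RPM in 4U and 2.07 RPM in 4T of batch 1, and at 0 and 0.142 RPM in batch 2. In the mRNA libraries of the same 2 conditions, 1 library each, the hepatocyte genes ALB, APOA1, TTR and HNF4A and the endothelial genes PECAM1, CDH5, VWF and KDR were listed at 0 FPKM in both, while the mesenchymal gene VIM was at 6465 FPKM in 4U and 11261 FPKM in 4T. SERPINA1, also made by hepatocytes, was at 13.8 and 8.59 FPKM, and AFP at 0 and 0.621 FPKM. miR-122, ALB, AFP, APOA1, TTR and HNF4A were therefore at or near 0 in a line labelled as liver cancer, while SERPINA1 and miR-192 were not. The 3 listed hepatocyte miRNAs of 4 (miR-122, miR-192 and miR-194) summed to 64.4 and 21.5 RPM in the 4U libraries and to 10.6 and 12.3 RPM in the 4T libraries. Most of this was miR-192, at 62.2 and 21.5 RPM in 4U and at 8.07 and 12.2 RPM in 4T. None of the 5 members of the epithelial miR-200 family was listed in either table. Of the 7 blood and 4 muscle markers, 2 and 1 were listed, each below 1 RPM. The endothelial list of 5, of which miR-31 was not listed, summed to 339 and 138 RPM in the 4U libraries and to 92.1 and 60.7 RPM in the 4T libraries. The neuronal list, with 3 of 4 listed, summed to 286 and 94.0 RPM in 4U and to 104 and 34.9 RPM in 4T. Nearly all of it was miR-128, at 275 and 93.5 RPM in 4U and at 102 and 34.1 RPM in 4T. The part of these lists in the results was not tested.

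Most miRNAs were lower in the treated cells of both batches. A miRNA was followed in both batches when it had at least 10 RPM in 4U or 4T of each, which left 86 of the 384, while 176 others were in both tables below this level and 122 were in 1 table only. Of the 86, 73 were lower in 4T of both batches, 2 were higher in both and 11 had ratios of opposite sign. The median log2 ratio of 4T to 4U was -1.56 in batch 1 (quartiles -2.11 and -1.12) and -1.08 in batch 2 (quartiles -1.47 and -0.74), that is 34.0% and 47.3% of the untreated level. At most 50% of the untreated level remained for 70 of the 86 in batch 1 and for 48 in batch 2, and 44 miRNAs (51.2% of the 86) met this in both. A miRNA that reached 10 RPM in a batch through 4U alone was lower in 4T there by the limit itself. Such miRNAs are part of these counts and of the shares of all followed miRNAs used below, and the same holds for the seed families. Of the 35 miRNAs that averaged 100 RPM or more over the 4 libraries, 32 were lower in both batches and 19 were among the 44. No miRNA (0 of 86, 0%) was at 200% or more in both batches, although 7 were in batch 2 alone.

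**Figure D1:**
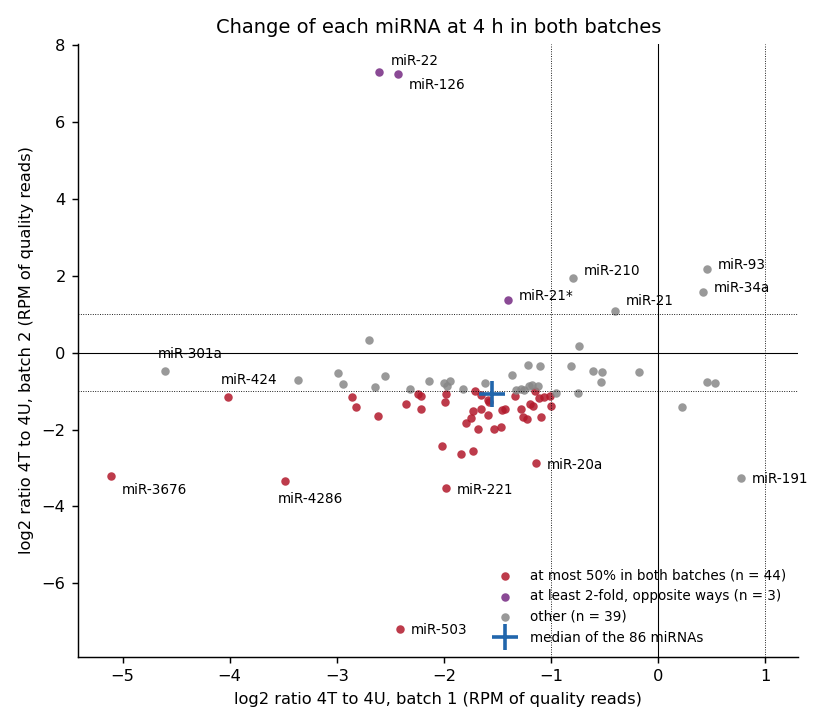
Log2 ratio of 4T to 4U of each of the 86 miRNAs in batch 1 (x axis) and batch 2 (y axis), from RPM of quality reads, with dotted lines at a 2-fold change and a cross at the medians of -1.56 and -1.08. The 44 miRNAs at or below 50% in both batches fill the lower left corner, and miR-93 and miR-34a are the 2 miRNAs above 0 on both axes.

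The size of a miRNA's change in one batch told little of its size in the other. Across the 86 miRNAs, Pearson's r between the log2 ratios of the 2 batches was 0.098 and Spearman's rho 0.184, and across the 35 that averaged 100 RPM or more r was 0.342. These correlations run across miRNAs of the same 4 libraries and are a description. The ratios of the same miRNA differed between batches by a median of 0.76 on the log2 scale. In 46 of the 86 miRNAs (53.5%) both 4T libraries were below both 4U libraries, in none were both above, and in 40 the groups overlapped.

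edgeR's quasi-likelihood test, with batch as a term, was run on 195 miRNAs, those that averaged 1 RPM or more across the 8 libraries of the line at 2 and 4 h. Between 4T and 4U, 178 of the 195 had a negative log2 fold change, with a median of -1.34. None passed an adjusted p of 0.05 (0 of 195, 0%), and the smallest adjusted p, 0.278, was shared by 62 miRNAs (Benjamini-Hochberg). Before adjustment, 27 miRNAs (13.8%) had a p under 0.05, and each of the 27 had its lower level in 4T. On the same counts limma's voom called 0 and had 38 at an unadjusted p under 0.05, whereas DESeq2 called 6 miRNAs, all lower. These were miR-3676, miR-18a, miR-4286, miR-503, miR-26a-2* and let-7a*, with adjusted p of 0.000268 to 0.0423 from DESeq2.

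The direction of many miRNAs depended on what the counts were scaled to, since another library size moves all miRNAs of a library alike. With the summed miRNA reads as the library size, which takes out a shift common to all miRNAs, 110 of the 195 miRNAs were lower and 85 higher, and the median log2 fold change was -0.11, a shift of more than 1 from that per quality read. TMM scaling gave 109 lower and 86 higher. All changes below are therefore changes per quality read, and a miRNA whose ratio lies near the median of its batch moved with the miRNAs as a whole.

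**Figure D2:**
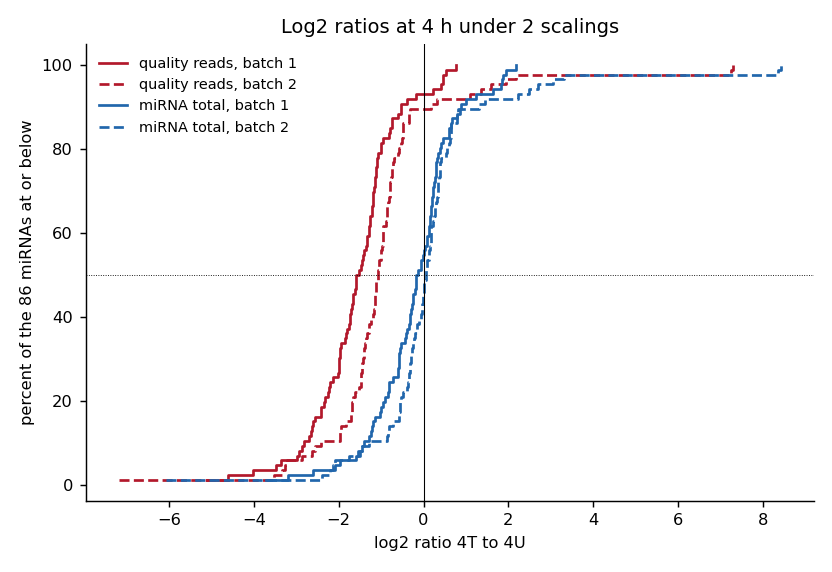
Cumulative percent of the 86 miRNAs (y axis) at or below each log2 ratio of 4T to 4U (x axis), per quality read in red and per miRNA read in blue, with batch 1 as solid and batch 2 as dashed lines. Per quality read the curves cross 50% at -1.56 and -1.08, and per miRNA read at -0.15 and 0.05.

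The most abundant miRNAs of the 4U libraries were lower in 4T of both batches. miR-125b, which represses several apoptosis genes, was at 15599 RPM in 4U and 7205 RPM in 4T of batch 1, and at 3513 and 1548 RPM in batch 2. It was lower in the treated library of each pair, at 46.2% and 44.1% of untreated, but batch 1 lay so far above batch 2 that the groups overlapped. Its log2 fold change was -1.15 (standard error 0.53) in edgeR's fit, close to the median of all miRNAs. miR-100, a repressor of MTOR whose gene lies beside one of the genes of miR-125b, went from 8271 to 3666 RPM in batch 1 and from 1763 to 670.5 RPM in batch 2. Both are transcribed from chromosome 11 (GRCh37), where MIR100 (122022937 to 122023016, minus strand) and MIR125B1 (121970465 to 121970552, minus strand) lie in introns of the noncoding RNA gene MIR100HG. A further gene of the same mature miR-125b, MIR125B2 (chromosome 21, 17962557 to 17962645, plus strand), lies in an exon of MIR99AHG, and reads cannot be assigned to one or the other.

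miR-29a, a repressor of collagen genes and of MCL1, went from 7371 to 3027 RPM in batch 1 and from 1237 to 445.5 RPM in batch 2, or to 41.1% and 36.0%. miR-29b, with the same seed, was at 24.9% in batch 1 (2972 to 740.5 RPM) but at 57.8% in batch 2 (2752 to 1591 RPM), and so was not among the 44. miR-103a, which targets DICER1, showed the same pattern, with 4858 RPM in 4U and 974 RPM in 4T of batch 1 and 2591 and 1346 RPM in batch 2. Its 4T level was thus 20.1% of untreated in batch 1 and 52.0% in batch 2, just above the limit.

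miR-15b, a repressor of cyclins and of BCL2, was at 2892 and 871 RPM in batch 1 and at 1232 and 429 RPM in batch 2. Both of its 4T libraries lay below both 4U libraries, and its log2 fold change was -1.64 (standard error 0.61). miR-17, the first miRNA of the miR-17-92 cluster, went from 2495 to 720.0 RPM and from 710.3 to 199 RPM, to 28.9% and 28% of untreated. For miR-19b the levels were 2008 and 614 RPM in batch 1 and 1163 and 578 RPM in batch 2, where 49.7% remained.

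let-7f, of the let-7 family that represses RAS, MYC and HMGA2, was at 1538 and 556 RPM in batch 1 and at 1239 and 322 RPM in batch 2. let-7g was at 1151 and 163 RPM in batch 1 and at 667 and 250.3 RPM in batch 2. The 4T libraries of both let-7 miRNAs lay below the 4U libraries, and let-7g was lower by more in batch 1 (14.2%) than in batch 2 (37.5%). MIRLET7G (chromosome 3, 52302292 to 52302379 of GRCh37, minus strand) lies in an intron of WDR82.

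**Figure D3:**
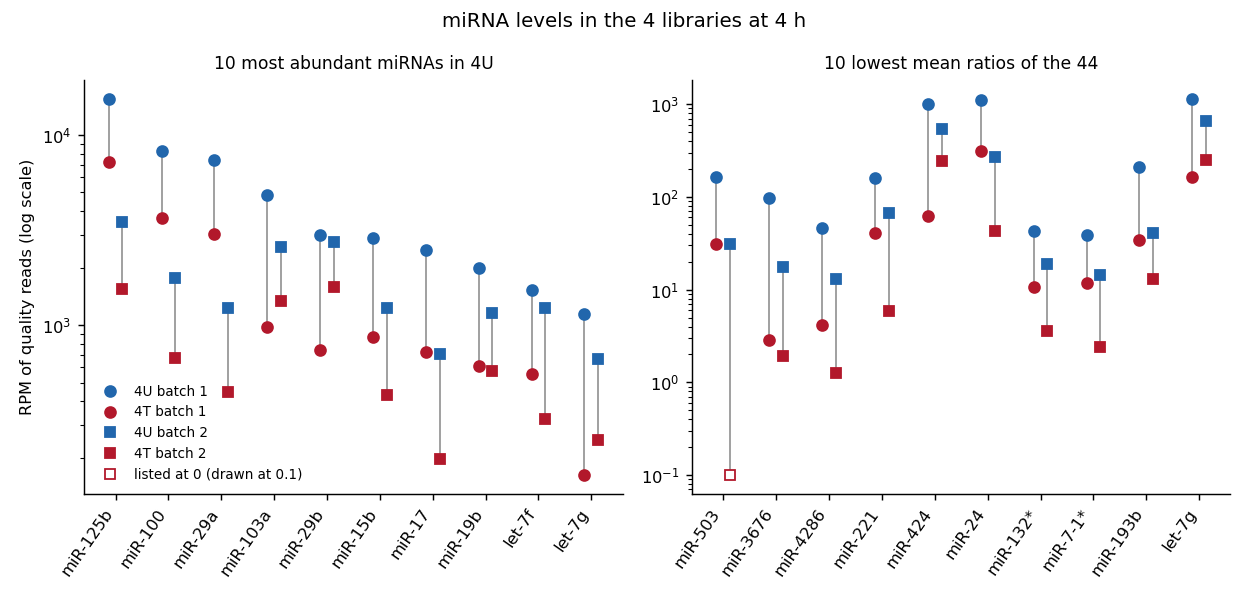
RPM of quality reads on a log scale in 4U (blue) and 4T (red) of batch 1 (circles) and batch 2 (squares), for the 10 most abundant miRNAs in 4U (left) and the 10 with the lowest mean ratio of 4T to 4U among the 44 (right). Each line joins the 2 libraries of a pair, with miR-503 listed at 0 in 4T of batch 2 and drawn at 0.1 there. The treated library is the lower in every pair drawn, which in the right panel follows from how its miRNAs were chosen.

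Among the 44 miRNAs, the 10 with the lowest mean ratio of 4T to 4U were miR-503, miR-3676, miR-4286, miR-221, miR-424, miR-24, miR-132*, miR-7-1*, miR-193b and let-7g. miR-3676 (MIR3676, chromosome 17, 8090493 to 8090577 of GRCh37, plus strand, outside any protein-coding or long noncoding gene of that strand) is an entry that later work assigned to a fragment of a transfer RNA. It was at 97.7 RPM in 4U and 2.83 RPM in 4T of batch 1, and at 17.7 and 1.91 RPM in batch 2. The treated values rest on 26 and 27 reads. Its log2 fold change of -4.18 (standard error 0.92) had the smallest unadjusted p of the edgeR fit, 0.0024, with an adjusted p of 0.278, and stood beside the lower share of reads removed by the ribosomal, transfer RNA and repeat filters given above, whose part in the result was not tested.

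miR-4286 had 46.3 RPM in 4U and 4.14 RPM in 4T of batch 1 and 12.9 and 1.28 RPM in batch 2, at 8.94% and 9.87% of untreated. It and miR-3676 were the 2 miRNAs of the 86 that lay 2-fold or more below the median log2 ratio in both batches. No RefSeq sequence was at hand for either, and both stand as a family of their own.

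miR-424 and miR-503 come from 1 cluster on chromosome X and repress cyclins and other cell cycle genes. miR-424 was at 1004 RPM in 4U and 61.9 RPM in 4T of batch 1, and at 540.0 and 245 RPM in batch 2. It was therefore at 6.17% of untreated in batch 1 and at 45.3% in batch 2. miR-503 (MIR503, 133680358 to 133680428 of GRCh37, minus strand, in an exon of MIR503HG) was at 163 and 30.7 RPM in batch 1 and at 31.0 and 0 RPM in batch 2. Against 3 reads in that library, it was at least 146-fold lower in 4T of batch 2, and 5.30-fold lower in batch 1. At 2 h it was at 11.6 RPM in 2U and 7.88 RPM in 2T of batch 2, so its place as the lowest mean ratio rests on the listed 0 of 1 library. The difference was thus larger in batch 1 for miR-424 and larger in batch 2 for miR-503.

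miR-221, a repressor of the cell cycle inhibitor CDKN1B, was at 161 and 40.5 RPM in batch 1 and at 67.8 and 5.88 RPM in batch 2. Its gene MIR221 (chromosome X, 45605585 to 45605694 of GRCh37, minus strand) lies in an exon of MIR222HG together with miR-222. miR-222 was lower in level, at 3.90 and 4.80 RPM in batch 1 and at 27.8 and 15.9 RPM in batch 2. miR-24, from the miR-23, miR-27 and miR-24 clusters, was at 1111 and 309 RPM in batch 1 and at 267 and 43.1 RPM in batch 2. miR-193b (MIR193B, chromosome 16, 14397824 to 14397906 of GRCh37, plus strand, in an intron of MIR193BHG) was at 211 and 34.3 RPM in batch 1 and at 40.7 and 12.9 RPM in batch 2. The 4T level was at 27.8% and 16.1% for miR-24 and at 16.3% and 31.7% for miR-193b.

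The other guide strands among the 44 were miR-125a-5p, miR-484, miR-20a, miR-30b, miR-27a, miR-128, miR-185, miR-30c, miR-331-3p, miR-107, miR-590-5p, miR-574-3p, miR-149, miR-361-5p, miR-29c, miR-455-3p, miR-197, miR-183, miR-152, miR-935 and miR-7. miR-20a was the most uneven of them, at 45.2% of untreated in batch 1 (176 to 79.3 RPM) and at 13.6% in batch 2 (442 to 60.3 RPM). miR-128 was among the most even, at 37.1% in batch 1 (275 to 102 RPM) and 36.5% in batch 2 (93.5 to 34.1 RPM). The members closest to the limit were miR-185, at 49.9% in batch 1, and miR-574-3p, at 49.9% in batch 2, and the nearest outside it were miR-342-3p with 50.9%, let-7a with 51.3% and miR-98 with 51.8% in batch 2 and miR-425 with 51.5% in batch 1.

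Star strands had 83 names in the tables, of which 9 reached 10 RPM in both batches, and 8 of the 9 were at or below 50% in both. This is 88.9%, beside 36 of the 77 other miRNAs (46.8%), and was not tested. The 8 were let-7i*, miR-378*, miR-22*, miR-126*, miR-550a*, miR-132*, miR-7-1* and miR-454*. Of these, miR-378*, miR-22*, miR-550a*, miR-132*, miR-7-1* and miR-454* reached 10 RPM in batch 2 through 4U alone. A strand that passes this way is lower in 4T by the limit itself, so the 88.9% is no evidence about star strands. With a limit of 10 reads, the share of star strands lay closer to that of all miRNAs (counts at the end). let-7i* was at 58.9 RPM in 4T of batch 1, 19.6% of untreated, and at 42.5 and 16.8 RPM in batch 2. miR-378* was even between batches, at 33.1% and 32.6% of untreated. miR-132*, the other arm of the CREB-induced miR-132, was at 42.8 and 10.6 RPM and at 18.9 and 3.54 RPM. miR-7-1* (MIR7-1, chromosome 9, 86584663 to 86584772 of GRCh37, minus strand, overlapping an exon of HNRNPK) was at 38.7 and 11.7 RPM and at 14.3 and 2.41 RPM. Both 4T libraries lay below both 4U libraries for miR-132*, miR-7-1*, miR-126*, miR-550a* and miR-454*, but not for let-7i*, miR-378* and miR-22*. Over all followed miRNAs this held for 46 of 86 (53.5%).

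The seed families gave the same picture, with a smaller median difference between batches. Counts were summed over the miRNAs of both tables that share a seed, and a miRNA with no RefSeq sequence stayed a family of its own, which gave 220 families, 22 of them with more than 1 member. Of the 67 families with at least 10 RPM in both batches, 60 were lower in 4T of both, 34 were at or below 50% in both (50.7%) and none was at 200% or more in both (0%). edgeR called 0 of the 157 families tested (0%), with a smallest adjusted p of 0.253 and 31 at an unadjusted p under 0.05, while limma's voom called 0, with 34 at an unadjusted p under 0.05, and DESeq2 called 6. The 6 were miR-3676, miR-18a, miR-4286, miR-503, let-7a* and the pair of miR-26a-2* with miR-26a-1*. The log2 ratios of the 20 larger families at this level differed between batches by a median of 0.45, against 0.96 for their 39 members at this level. Across all 67 families, Pearson's r between the batches was 0.065 and Spearman's rho 0.248, beside 0.098 and 0.184 for the single miRNAs. A difference of more than 2 on the log2 scale was found in 9 of the 67 families and in 12 of the 86 miRNAs.

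**Figure D4:**
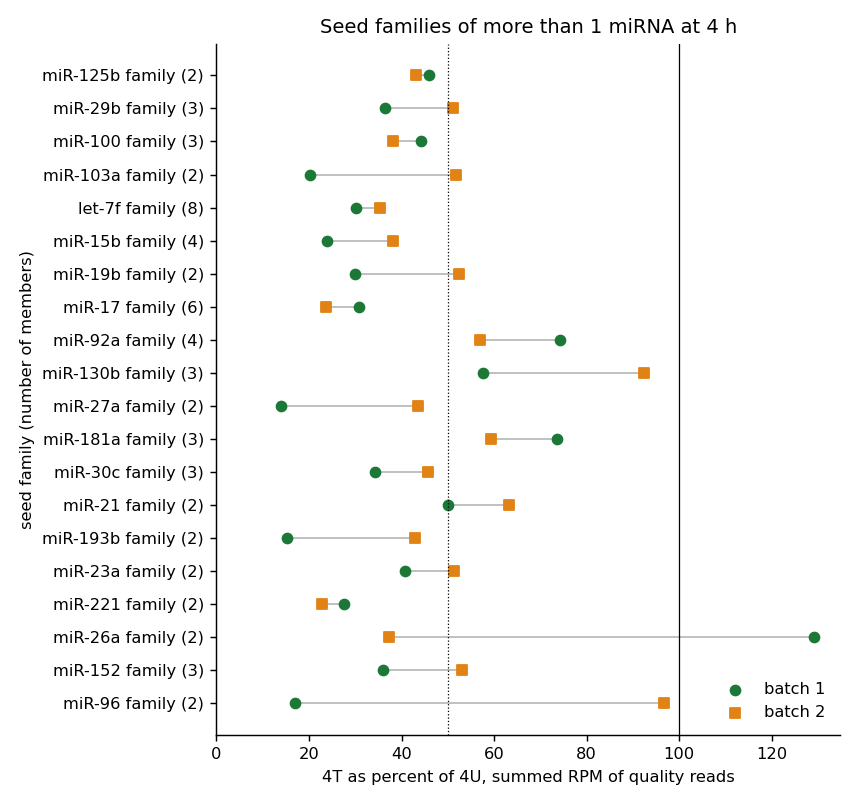
Summed RPM of 4T as percent of 4U (x axis) in batch 1 (circles) and batch 2 (squares) for the 20 seed families of more than 1 miRNA, ordered from the top by their level in 4U, with the number of members in brackets. Lines mark 50% and 100%. In 9 families both points lie at or left of 50%, and only the miR-26a family has a point above 100%.

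The 9 larger families at or below 50% in both batches were those of miR-125b, miR-100, let-7f, miR-15b, miR-17, miR-27a, miR-30c, miR-193b and miR-221. Counts of family members among the 44, here and below, are to be read beside the 51.2% of all followed miRNAs. The let-7 family of 8 miRNAs summed to 3419 RPM in 4U and 1028 RPM in 4T of batch 1, and to 2379 and 839 RPM in batch 2. Its sum was thus at 30.1% and 35.3% of untreated, with both 4T libraries below both 4U libraries, although of its 6 members that could be followed only let-7f and let-7g were among the 44. The other 4 were let-7a, at 613 and 245 RPM and at 333 and 171 RPM, miR-98, at 28.3% and 51.8%, let-7d, at 69.4% and 71.2%, and let-7b, at 137% and 59.1%. let-7b was the one of these 6 with a higher 4T level in either batch, at 23.5 and 32.2 RPM in batch 1.

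The miR-17 family, 6 miRNAs from paralogous clusters that repress CDKN1A and E2F1, summed to 2714 and 836 RPM in batch 1 and to 1181 and 280.1 RPM in batch 2. The log2 fold change of its sum was -1.92 (standard error 0.56), with an unadjusted p of 0.010 and an adjusted p of 0.253 in edgeR. Of the 3 members that could be followed, miR-17 and miR-20a were among the 44. The third, miR-93, was higher in 4T of both batches, at 18.6 and 25.5 RPM in batch 1 and at 3.02 and 13.7 RPM in batch 2. miR-106b, of the same seed but below 10 RPM in batch 1, was at 8.40 and 5.34 RPM and at 16.2 and 4.25 RPM, lower in 4T of both. miR-93 and miR-106b come from the same transcript. The study named the miR-17-92 cluster and the miR-106b-25 cluster, and also miR-21 and miR-191, from these samples, so their counts are no independent evidence.

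By genomic cluster, 3 of the 5 members of miR-17-92 that could be followed were among the 44 (miR-17, miR-20a and miR-19b), near the 51.2% of all followed miRNAs. miR-19a was at 26.0% in batch 1 (358 to 93.2 RPM) and at 60.2% in batch 2 (397 to 239 RPM). miR-92a differed from the other members, at 144% in batch 1 (238 to 343 RPM) and at 57.9% in batch 2 (327 to 189 RPM). The sixth member, miR-18a, was at 3.65 and 1.09 RPM in batch 1 and at 30.2 and 0.213 RPM in batch 2, the last on 3 reads. Of miR-106b-25, miR-25 was at 25.5% (338 to 86.2 RPM) and 55.2% (186 to 103 RPM), and none of its members was among the 44. The 6 members of miR-17-92 were all negative in edgeR's fit, as were 178 of all 195 miRNAs (91.3%), and 2 of the 6 had an unadjusted p under 0.05, beside 13.8% of all.

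The miR-15 family summed to 3905 and 934 RPM in batch 1 and to 1772 and 676 RPM in batch 2, to 23.9% and 38.1% of untreated. Both members that could be followed, miR-15b and miR-424, were among the 44, as were 51.2% of all followed miRNAs. miR-16, the most studied member, was listed in batch 2 only, at 28.4 and 9.43 RPM, and miR-15a was at 8.91 and 0.654 RPM in batch 1 and at 0 and 1.84 RPM in batch 2, too low to follow.

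The miR-29 family summed to 10408 and 3798 RPM in batch 1 and to 4023 and 2052 RPM in batch 2, or 36.5% and 51.0% of untreated. miR-29a and miR-29c were among the 44, miR-29c with 64.7 and 31.0 RPM and with 33.5 and 15.0 RPM. The miR-103 family, made up of miR-103a and miR-107 in introns of the PANK genes, was at 20.1% and 51.8%. miR-107 itself, in an intron of PANK1 (MIR107, chromosome 10, 91352500 to 91352586 of GRCh37, minus strand), was among the 44, with 204 and 42.9 RPM and with 67.6 and 32.0 RPM. Both members had an unadjusted p under 0.05 in edgeR's fit, beside 27 of all 195 miRNAs (13.8%), and neither passed the adjustment. Their sequences differ only near the 3′ end, so reads could be split between them and they are not separate results.

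Of the miR-30 family, which has been tied to the control of autophagy and of the mesenchymal state, miR-30b and miR-30c were among the 44 and miR-30a was not. miR-30b was at 373 and 111 RPM in batch 1 and at 196 and 60.3 RPM in batch 2, about the same share in each (29.8% and 30.7%). Both members of the miR-125 family were among the 44, with miR-125a-5p at 42.9% and 30.5%, and their sum was at 46.0% and 43.2%. Of the 3 miRNAs of the miR-23, miR-27 and miR-24 clusters that could be followed, miR-24 and miR-27a were among the 44. miR-23a and miR-27a lie side by side in MIR23AHG on chromosome 19, at 13947401 to 13947473 and at 13947254 to 13947331 of GRCh37 (minus strand). miR-27a went from 268 to 37.1 RPM and from 212 to 95.1 RPM, and miR-23a from 215 to 88.4 RPM and from 113 to 58.5 RPM, so that miR-23a missed the limit in batch 2 with 51.9%.

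Of the 20 larger families, those of miR-92a, miR-130b, miR-181a and miR-21 stayed above 50% of untreated in both batches, and that of miR-26a was above 100% in batch 1. The miR-181a family was at 73.5% and 59.4% of untreated, led by miR-181a itself with 347 and 239 RPM and with 86.7 and 51.5 RPM. The miR-130b family was at 57.7% and 92.4%, and miR-130b itself was at 95.7 and 108 RPM in batch 2. With miR-130a, which had no RefSeq sequence, none of the 3 followed miRNAs of the miR-130 and miR-301 list was among the 44. The miR-26a family was at 129% in batch 1 and 37.3% in batch 2, but miR-26a had only 14.9 RPM in 4U of batch 1 against 183 RPM in 4U of batch 2. miR-148b and miR-152 of another family were at 22.8% and 60.2% and at 49.6% and 45.6%. miR-145, of the mesenchymal miR-143 and miR-145 cluster, was at 46.0% (272 to 125 RPM) and 55.1% (101 to 55.5 RPM), while miR-143 was not listed.

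miR-34a, a repressor of cell cycle genes and BCL2, was the most abundant of the 2 miRNAs that were higher in 4T of both batches, the other being miR-93. It was at 298 RPM in 4U and 397 RPM in 4T of batch 1, and at 56.5 and 169 RPM in batch 2. The treated library was higher by 1.33-fold in batch 1 and by 2.99-fold in batch 2, but 4T of batch 2 lay below 4U of batch 1, so the groups overlapped. Its log2 fold change was 0.83 (standard error 0.78), with an unadjusted p of 0.319. Its gene MIR34A (chromosome 1, 9211727 to 9211836 of GRCh37, minus strand) lies in an exon of MIR34AHG. Of its relatives, miR-34c-5p was at 6.87 and 2.07 RPM in batch 1 and at 19.6 and 10.1 RPM in batch 2, lower in both. Against the median log2 ratio of the 86 miRNAs, 3 stood 2-fold or more above it in both batches, namely miR-34a, miR-93 and miR-21. The untreated level of each was lower at 4 h than at 2 h in both batches, with 2U at 322 and 318 RPM for miR-34a and at 78.2 and 217 RPM for miR-93. The part of this in their ratios was not tested.

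miR-21, a repressor of PDCD4 and one of the most studied miRNAs in liver cancer, was singled out for this after its values were seen. It was at 91.2 and 69.0 RPM in batch 1 and at 27.3 and 58.3 RPM in batch 2, lower in 4T of batch 1 and higher in 4T of batch 2. At 2 h miR-21 was at 797 RPM in 2U and 64.6 RPM in 2T of batch 1, and at 1099 and 0.529 RPM in batch 2. With miR-590-5p, which has the same seed, its family was at 50.1% and 63.3%.

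The 5 miRNAs whose ratios lay furthest apart with opposite signs were miR-22, miR-126, miR-191, miR-96 and miR-21*. miR-22 was at 252 and 41.4 RPM in batch 1, but at 0.099 RPM (2 reads) in 4U and 15.7 RPM in 4T of batch 2. miR-126, the miRNA of endothelial cells, was at 117 and 21.7 RPM in batch 1 and was listed at 0 in 4U of batch 2, where 4T had 22.4 RPM. Both were thus near 0 in the same untreated library. The other arms of their hairpins were not low there, since miR-22* was at 25 RPM and miR-126* at 42.2 RPM in 4U of batch 2, and both star strands were among the 44. In the untreated library of 2 h in the same batch, miR-22 was at 40.3 RPM and miR-126 at 57.4 RPM.

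miR-191 was at 27.8 and 47.4 RPM in batch 1 and at 27.1 and 2.83 RPM in batch 2. miR-425, which is cut from the same transcript in DALRD3, was lower in both, at 51.5% of untreated in batch 1 (349 to 180 RPM) and 48.2% in batch 2. miR-96 was at 58.8 and 9.05 RPM and at 8.61 and 10.8 RPM, and miR-21* at 24.5 and 9.26 RPM and at 4.01 and 10.3 RPM. For these 3 miRNAs the groups overlapped, and no direction can be read.

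The change at 4 h was also tested against that at 2 h in the same fit. edgeR called 0 of the 195 miRNAs (0%), with a smallest adjusted p of 0.954 and 8 at an unadjusted p under 0.05, and DESeq2 called 0. The 3 with the smallest unadjusted p were miR-122, miR-502-3p and miR-15b*, each of which was below 10 RPM in both 4 h libraries of at least 1 batch.

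The mRNA table of the same conditions holds 12 of a list of 13 miRNA host genes, at 1 library per condition, so no test was possible. MCM7, which carries miR-106b, miR-93 and miR-25, was at 333 FPKM in 4U and 320.2 FPKM in 4T. PANK2 and PANK3, which carry the 2 genes of miR-103a (MIR103A2, chromosome 20, 3898141 to 3898218, plus strand, and MIR103A1, chromosome 5, 167987897 to 167987982, minus strand, of GRCh37), were at 2.76 and 0.690 FPKM and at 0.339 and 0.453 FPKM. DALRD3, the host of miR-191 and miR-425, was at 45.5 and 21.2 FPKM. SMC4, in whose intron MIR15B lies (chromosome 3, 160122376 to 160122473 of GRCh37, plus strand), was at 0.322 and 0.573 FPKM, and MIR17HG was listed at 0 in both. The 11 hosts of the list above 0 thus stood at 0.250 to 1.78 times the untreated level. Outside that list, WDR82 was at 1.23 and 0.743 FPKM and HNRNPK at 3.24 and 6.12 FPKM. The FPKM values carry no counts, so no counting interval is given for them.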

How the data were processed

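Small RNA of 60 to 80 bp libraries was sequenced on SOLiD instruments. As the authors describe, reads of 35 bases were trimmed with cutadapt, those of 16 to 30 bases were kept, matches to ribosomal RNA, transfer RNA and repeats were removed with Bowtie, and the rest was assigned to miRBase, in a version not given in the sources used here. The deposited miRNA values are raw counts per miRNA, with miRNAs of at least 2 reads listed and batches not pooled. The deposited mRNA values are FPKM, made by the authors with Bowtie and Cufflinks on hg19.

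Quality reads per library, and the reads left after each filter, are not in the count tables and were taken from the library statistics in the paper's supplement. The quality reads served as library sizes. Counts of miRNAs in both tables with a mean of at least 1 RPM in the 8 SK-HEP-1 libraries were tested with edgeR 4.0.16 (quasi-likelihood, R 4.3.3), with a mean per condition and time and a batch term, adjusted by Benjamini-Hochberg. DESeq2 1.42.0 and limma 3.58.1 were alternatives. A miRNA was called alike when 4T was at most 50% or at least 200% of 4U in both batches, with at least 10 RPM in 1 condition of each and 0 set to 3 reads. The fit was tested on simulated data. The batch deviations of the conditions, which share a batch of cells, correlated at 0.424 to 0.714 over 195 miRNAs.

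Named miRNAs were the 10 of lowest mean ratio among those alike, the 10 most abundant in 4U and up to 4 of each list. Added to these were the 5 furthest apart with opposite signs, the 5 of smallest p and the 3 of smallest p against 2 h. Other names were chosen after their values were seen. The members and lists were chosen with earlier results of these data known. The mouse libraries were not used here.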

Additional observations from a re-analysis of the deposited data

Results flagged for a closer look

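miR-34a and miR-93 were lower in treated cells of both batches at 2 h and higher in both at 4 h. The log2 ratios of miR-34a stood at -1.18 (batch 1) and -1.46 (batch 2) after 2 h, against 0.41 and 1.58 after 4 h. The difference between the times was 2.19 in edgeR's fit (standard error 1.10, unadjusted p = 0.0862, adjusted p = 0.954). Those of miR-93 stood at -3.04 and -3.29 after 2 h, against 0.46 and 2.19 after 4 h, and the difference was 4.12 (standard error 1.56, unadjusted p = 0.0323, adjusted p = 0.954). Neither difference passed the adjustment over 195 miRNAs. The untreated levels also differed between the times. In 2U miR-34a was at 322 and 318 RPM and miR-93 at 78.2 and 217 RPM, above the 4U levels given above in both batches. The treated level of miR-93 in batch 2 was lower at 4 h as well, since 2T had 22.2 RPM. The part of the untreated libraries in the change of sign was not tested.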

How the results depend on the processing

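edgeR called 0 under each scaling, filter and left-out library, limma's voom called 0, and DESeq2 called 6 miRNAs and 6 families. Without the replicate block, that is without pairing by batch, edgeR called 0, with 3 miRNAs and 4 families at an unadjusted p under 0.05. The median log2 fold change of the miRNAs was -0.077 with DESeq2's size factors, -0.13 with TMM, -0.11 scaled to the miRNA total and -1.74 scaled to reads after the transfer RNA filter, and -1.75 (without 4T of batch 2) to -1.001 (without 4T of batch 1) with 1 library left out. For the families it was 0.039, -0.061, -0.11 and -1.76, and -1.75 to -1.10. The median log2 ratios of the 86 miRNAs were -0.15 and 0.048 scaled to the miRNA total, -0.067 and -0.039 with TMM, and -1.92 and -1.50 after the transfer RNA filter.

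The 44 miRNAs at or below 50% in both batches became 3 scaled to the miRNA total (miR-3676, miR-4286 and miR-503) and 2 with TMM, and 3 miRNAs (miR-21, miR-34a and miR-93) were then at 200% or more under either. With at least 10 reads the count was 82 of 180, and with at least 50 RPM it was 23 of 40. Batch 1 alone gave 93 lower and 2 higher of 122, and batch 2 alone 54 lower and 7 higher of 98.

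Of the lists with members at or below 50% in both batches, each had 0 scaled to the miRNA total or with TMM. Over all 86 miRNAs the count rose from 44 to 63 at a 1.5-fold limit and to 64 scaled to reads after the transfer RNA filter, and the lists are to be read beside these. Both the 1.5-fold limit and the scaling to reads after the transfer RNA filter gave 4 for let-7, 2 each for the miR-19, miR-103a and miR-152 families, and 1 each for the miR-92a family, the miR-106b-25, miR-191 and miR-145 clusters and the hepatocyte markers. With at least 10 reads there were 4 for the miR-17 seed, 2 for the miR-100 family, 4 for the miR-23, miR-24 and miR-27 clusters and 22 of 40 star strands. With at least 50 RPM there were 1 for miR-29, 1 for the endothelial markers and 0 for the miR-152 family and the star strands, which had no member at that level.

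Single log2 fold changes turned sign with DESeq2's size factors, TMM and the miRNA total, in this order, at 0.18, 0.14 and 0.14 for miR-125b, 0.90, 0.98 and 0.81 for miR-126, 1.03, 1.04 and 0.97 for miR-21*, 0.69, 0.76 and 0.59 for miR-22, 0.14, 0.083 and 0.12 for miR-29b, 1.31, 1.29 and 1.26 for miR-502-3p, and 0.26, 0.26 and 0.21 for miR-96. In the 4 h libraries alone miR-126 was at 2.56 and miR-22 at 1.76, and with limma's voom at 2.21 and 1.10. With 1 library left out, miR-126 ran from -1.99 to 10.93, miR-191 from -2.86 to 0.47, miR-21 from -0.68 to 1.32, miR-21* from -1.20 to 1.18, miR-22 from -2.18 to 6.85, miR-29b from -3.58 to 0.40, miR-502-3p from -0.25 to 0.37 and miR-96 from -2.56 to 0.17. None of these 8 passed the test in any fit. Where a change of sign did not follow from the scaling or the left-out library itself, the cause was not tested.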
